A study of Homo sapiens with 6 samples.

Results

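The BCL2 family decides whether the outer membrane of the mitochondrion is opened during apoptosis. Its prosurvival proteins, among them BCL2, BCL-XL (the main product of BCL2L1) and MCL1, hold in check the effectors BAX and BAK, which form the pores through which cytochrome c leaves. The BH3-only proteins, such as BIM (BCL2L11), PUMA (BBC3), NOXA (PMAIP1), BID and BAD, sense stress and act by inserting their BH3 helix into a groove of the other members. Much of this control works on the proteins, through binding, cleavage, phosphorylation and degradation, and is not seen in mRNA levels.

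The 10 genes BCL2, BCL2L1, MCL1, BAX, BAK1, BCL2L11, BBC3, PMAIP1, BID and BAD were chosen by symbol, with earlier results of these data known but by no rule on their values, from a table of 60605 genes, and each matched 1 row. They were compared between MDA-MB-231 cells with a control shRNA (shControl) and with an shRNA against PUS1 (shPUS1), with 3 libraries labelled as biological replicates in each group. PUS1 is a pseudouridine synthase, an enzyme that modifies uridines in RNA, and the comparison asks which mRNAs differ when it is depleted. MDA-MB-231 is a triple-negative breast cancer cell line. Both groups were infected with lentivirus, by the study's methods from a puromycin-resistant vector and under puromycin, so the control cells shared these treatments. The column heads of the knockdown libraries carry a number 2 whose meaning they do not give, so the hairpin is not named here. It is not stated whether the replicates came from separate infections, and p-values therefore measure only the spread between these libraries.

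The libraries held 15003203, 19625998 and 14241505 counts in shControl replicates 1, 2 and 3, and 18233530, 18335152 and 17109464 counts in shPUS1 replicates 1, 2 and 3. Levels are given as FPKM, the counts scaled to exonic length and to the library total, which allow genes of different length to be compared. Differences are log2 fold changes of shPUS1 over shControl from edgeR's quasi-likelihood test on the counts, fitted to all 14748 genes with enough counts. A gene was called changed at a Benjamini-Hochberg adjusted p under 0.05. All 10 family genes passed the filter on low counts.

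PUS1 itself, which checks the labels, was at 1.13, 0.95 and 0.93 FPKM in the shPUS1 libraries. It was at 2.57, 4.66 and 2.18 FPKM in the shControl libraries, so the groups did not overlap. PUS1 fell by 1.64 on the log2 scale (standard error 0.32, edgeR adjusted p = 0.0462). It was highest in shControl replicate 2, and without that library its log2 fold change was -1.20 (edgeR adjusted p = 0.00311). With a shPUS1 library or shControl replicate 1 left out, the adjusted p of PUS1 was between 0.0905 and 0.253.

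The markers of the line were expressed in both groups, lymphocyte markers were at or near 0, and low levels of fibroblast markers were present. The mesenchymal gene VIM was at 443, 498 and 399.9 FPKM in shControl and at 309, 286 and 339 FPKM in shPUS1, lower in every shPUS1 library. VIM did not pass edgeR's test (log2 fold change -0.50, adjusted p = 0.0873) and passed that of DESeq2 (adjusted p = 0.0341). CD44 was also lower in every shPUS1 library (log2 fold change -0.29, edgeR adjusted p = 0.169). The mesenchymal gene FN1 had a log2 fold change of 0.08 with overlapping groups (edgeR adjusted p = 0.805). Groups also overlapped for the epithelial keratin KRT8 (-0.32, edgeR adjusted p = 0.268). KRT18, another epithelial keratin, was between 63.8 and 74.0 FPKM in all libraries (-0.02, edgeR adjusted p = 0.943). The estrogen and progesterone receptor genes ESR1 and PGR were at 0.04 FPKM or less, and ERBB2 at 4.93 to 6.91. Of the lymphocyte markers, CD3E and MS4A1 had 0 counts in every library and PTPRC at most 2. The 3 fibroblast markers COL1A1, COL1A2 and PDGFRB summed to 6.31, 2.05 and 7.99 FPKM in shControl and 10.7, 11.85 and 9.88 in shPUS1. All shPUS1 sums were higher, and shControl replicate 2 was the lowest. In that list PDGFRB was the most abundant gene, PDGFRB and COL1A1 supplied nearly all of the sum, and COL1A2 had at most 5 counts in any library. COL1A1 did not pass edgeR's test (adjusted p = 0.11) and passed that of DESeq2 (adjusted p = 0.0165). The part of these genes in the results on the family was not tested. In such bulk RNA, fewer cells that express a gene and less of its RNA per cell cannot be told apart.

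What makes these genes a family is the BH3 core, and its coding sequence is shown for the members described most fully, BCL2L1, MCL1, BAX, PMAIP1 and BBC3, and for BAD, whose core has another residue at the fifth position. Each line gives the coding strand of a GENCODE release 29 transcript (GRCh38), 5′ to 3′, with the codons from the conserved leucine to the conserved aspartate in capitals.
BCL2L1 (chr20:31721928-31721957, minus strand, exon 2 of 3): caagcgCTGAGGGAGGCAGGCGACgagttt
MCL1 (chr1:150578871-150578900, minus strand, exon 1 of 3): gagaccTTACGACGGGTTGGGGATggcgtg
BAX (chr19:48955781-48955810, plus strand, exon 3 of 6): gagtgtCTCAAGCGCATCGGGGACgaactg
PMAIP1 (chr18:59902667-59902696, plus strand, exon 2 of 2): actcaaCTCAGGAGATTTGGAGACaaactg
BBC3 (chr19:47226585-47226614, minus strand, exon 3 of 4): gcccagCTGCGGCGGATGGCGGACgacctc
BAD (chr11:64271628-64271657, minus strand, exon 3 of 4): cgcgagCTCCGGAGGATGAGTGACgagttt

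The search asked for a leucine codon, 3 codons of any kind, a codon for glycine, alanine or serine and an aspartate codon in the translated reading frame, and all 10 members matched. The fifth codon of the core is glycine in BCL2L1, MCL1, BAX and PMAIP1, alanine in BBC3 and serine in BAD. BID held 2 matches and each of the other members 1. So short a pattern is common, since 34.9% of 19526 human proteins hold at least 1 match, and it serves here only to show the shared core. The proteins around it range from 54 residues for PMAIP1 to 350 residues for MCL1.

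None of the 10 genes was called changed in shPUS1 by edgeR's quasi-likelihood test, where 380 of all 14748 genes tested were (2.58%). When a log2 fold change of 1 or more in either direction was also required, 202 genes remained (1.37%), again with no member among them. At an unadjusted p under 0.05 there were 2 members, PMAIP1 and BCL2L1, both with positive fold changes, and 25.5% of all genes tested lay at that level. The median log2 fold change over the 10 members was 0.05, with 5 values above 0 and 5 below, and the median over all genes tested was -0.03. After scaling by TMM, the trimmed mean normalization of edgeR, shPUS1 and shControl libraries did not overlap for 5 members, and they did not overlap for 36.1% of all genes. Of these 5 members, BCL2L1, BBC3 and PMAIP1 had every shPUS1 library above shControl (18.8% of all genes). BAX and BID had every shPUS1 library below (17.3% of all genes). Of 3 libraries against 3, an exact two-sided permutation test cannot give a p under 0.1.

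**Figure D1:**
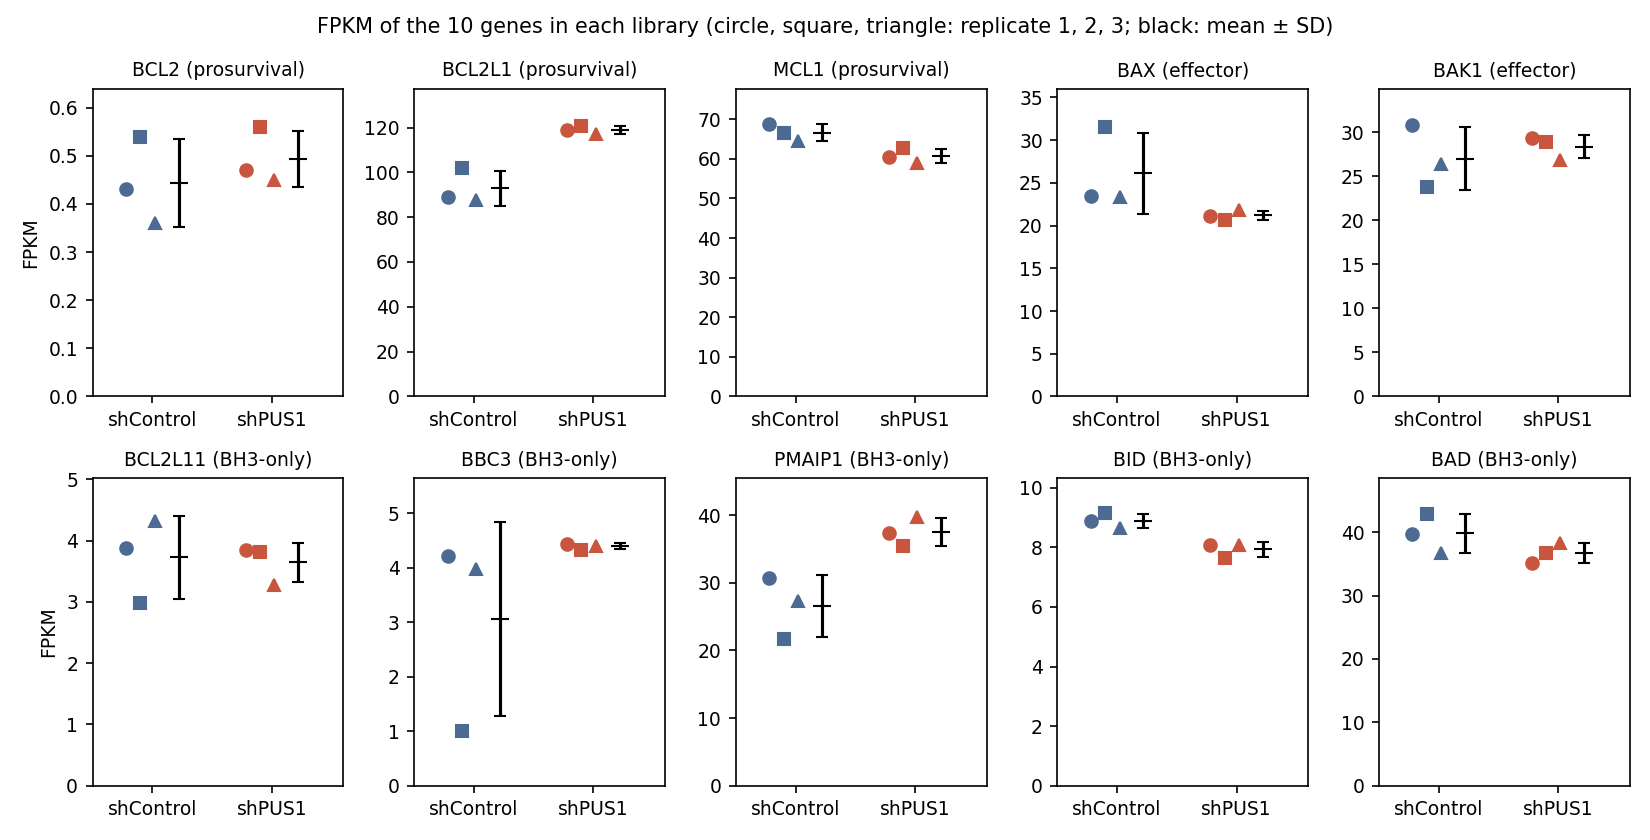
FPKM (vertical axes, each from 0) of the 10 genes in the 3 shControl (blue) and 3 shPUS1 (red) libraries, with symbols for replicates and the mean ± SD in black. The shPUS1 libraries of BCL2L1 and PMAIP1 lie above all shControl libraries, and shControl replicate 2 (square) stands far below the other libraries for BBC3, at 1.01 FPKM.

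Among the prosurvival genes, BCL2L1 had the highest level of the whole family. BCL2L1 (ENSG00000171552, chromosome 20, 31664452 to 31723989) was at 89.1, 102 and 87.5 FPKM in shControl replicates 1, 2 and 3. In shPUS1 it was at 119, 121 and 117 FPKM. All shPUS1 libraries were higher than all shControl libraries, with the 3 shPUS1 values close together and shControl replicate 2 nearest to them. The group levels were 119.0 ± 1.79 and 92.8 ± 7.92 FPKM (SD, n = 3 each), and the values rested on 5227 to 9288 counts per library. BCL2L1 had a log2 fold change of 0.38 (standard error 0.12, 95% interval 0.09 to 0.66), which did not pass the threshold (edgeR adjusted p = 0.117). BCL2L1 encodes both a long prosurvival and a short proapoptotic protein by alternative splicing, and counts per gene do not separate its 9 annotated transcripts.

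MCL1, whose protein is short-lived and replaced by continuous synthesis, was second in level. MCL1 (ENSG00000143384, chromosome 1, 150560895 to 150579738) was at 68.8, 66.5 and 64.5 FPKM in shControl and at 60.5, 62.7 and 59.0 FPKM in shPUS1. On this scale all shPUS1 libraries were lower, while after TMM scaling the groups overlapped. MCL1 had a log2 fold change of -0.11 (standard error 0.11, 95% interval -0.36 to 0.13, edgeR adjusted p = 0.532). When libraries were scaled by their totals alone, as FPKM is, MCL1 joined the members whose groups did not overlap, which made them 6 of 10, and 36.5% of all genes did not overlap on that scale. The bounds of MCL1 in the deposited table reach further downstream than those of GENCODE release 29. With them, the 3′ end of MCL1 overlaps ADAMTSL4 on the opposite strand, a gene with 413 to 1524 counts per library. The shared stretch is short, from 150560895 to 150560937. The strand setting of the counting is not stated in the sources used here.

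BCL2, the founding gene of the family, was barely expressed. BCL2 (ENSG00000171791, chromosome 18, 63123346 to 63320128) was at 0.43, 0.54 and 0.36 FPKM in shControl and at 0.47, 0.56 and 0.45 FPKM in shPUS1, with overlapping groups. These values rested on 65 to 133 counts per library. BCL2 had a log2 fold change of 0.17, with a 95% interval from -0.39 to 0.72 (edgeR adjusted p = 0.687). It was 0.36 with shControl replicate 2 left out and 0.02 with shControl replicate 3 left out, and neither passed the threshold. BCL2 was thus the lowest of the 10 genes in both groups, and none of its libraries reached the lowest library of any other member.

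The effectors BAX and BAK1 overlapped in level in shControl, while in shPUS1 every library of BAX was below every library of BAK1. BAX (ENSG00000087088, chromosome 19, 48954815 to 48961798), whose protein moves from the cytosol to mitochondria, was at 23.5, 31.6 and 23.3 FPKM in shControl. In shPUS1 it was at 21.1, 20.7 and 21.8 FPKM, below every shControl library. The other shControl libraries lay closer to the shPUS1 libraries than shControl replicate 2 did. BAX had a log2 fold change of -0.29 (standard error 0.16, 95% interval -0.67 to 0.10, edgeR adjusted p = 0.308). Without shControl replicate 2 it was -0.10 (adjusted p = 0.465).

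BAK1, whose protein sits in the outer mitochondrial membrane, showed no separation of the groups. BAK1 (ENSG00000030110, chromosome 6, 33572547 to 33580293) was at 30.8, 23.8 and 26.4 FPKM in shControl and at 29.4, 28.9 and 26.9 FPKM in shPUS1. Here shControl replicate 2 was the lowest library of all. BAK1 had a log2 fold change of 0.10 (standard error 0.13, 95% interval -0.20 to 0.40, edgeR adjusted p = 0.664). With shControl replicate 1 left out BAK1 had 0.19, and with shControl replicate 2 left out 0.03. Of the 100-base stretches of its annotated transcripts, 3.55% also occur in the pseudogene BAK1P1, and no other member shared such stretches with another gene.

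Of the BH3-only genes, PMAIP1 came closest to the threshold. PMAIP1 (ENSG00000141682, chromosome 18, 59899996 to 59904305) encodes NOXA, which binds MCL1 and promotes its degradation. It was at 30.7, 21.7 and 27.3 FPKM in shControl and at 37.3, 35.5 and 39.7 FPKM in shPUS1. All shPUS1 libraries were above all shControl libraries, and shControl replicate 2 was again the lowest. The group levels were 37.5 ± 2.12 and 26.6 ± 4.56 FPKM (SD, n = 3 each), from 849 to 1488 counts per library. PMAIP1 had a log2 fold change of 0.52 (standard error 0.14, 95% interval 0.19 to 0.86), a fold of 1.44, with an unadjusted p of 0.00658 and an adjusted p of 0.0841 from edgeR.

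BBC3 had the widest interval of the family, and its control libraries were far apart. BBC3 (ENSG00000105327, chromosome 19, 47220822 to 47232766) encodes PUMA, which binds all prosurvival members. It was at 4.21, 1.01 and 3.97 FPKM in shControl, where replicate 2 held 63 counts against 201 and 180 in the others. In shPUS1 it was at 4.44, 4.33 and 4.4 FPKM, just above the higher control libraries. For BBC3 the log2 fold change was 0.57 (standard error 0.44, 95% interval -0.45 to 1.58, edgeR adjusted p = 0.439). Without shControl replicate 2 it was 0.14 (adjusted p = 0.421).

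The other BH3-only genes had fold changes closer to 0. BID (ENSG00000015475, chromosome 22, 17734138 to 17774770), which caspase-8 cleaves to carry the death receptor signal to mitochondria, was at 8.87, 9.14 and 8.66 FPKM in shControl and at 8.08, 7.63 and 8.08 FPKM in shPUS1. The groups did not overlap, and the log2 fold change was -0.14 (standard error 0.12, 95% interval -0.43 to 0.14, edgeR adjusted p = 0.483). BAD (ENSG00000002330, chromosome 11, 64269830 to 64284704), whose protein is inactivated by phosphorylation under survival signals, was at 39.7, 42.9 and 36.8 FPKM in shControl and at 35.2, 36.8 and 38.3 FPKM in shPUS1. These groups overlapped, with a log2 fold change of -0.10 (95% interval -0.39 to 0.20, edgeR adjusted p = 0.660). For BAD it was -0.02 without shControl replicate 2 and -0.17 without shControl replicate 3. BAD overlaps GPR137 on the opposite strand, a gene with 318 to 573 counts per library.

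BCL2L11 (ENSG00000153094, chromosome 2, 111119378 to 111168445) encodes BIM, which binds all prosurvival members. It was at 3.88, 2.98 and 4.32 FPKM in shControl and at 3.84, 3.82 and 3.28 FPKM in shPUS1. The groups lay within each other, and the log2 fold change was -0.01 (standard error 0.17, 95% interval -0.39 to 0.38, edgeR adjusted p = 0.988). It was -0.13 without shControl replicate 2 and 0.09 without shControl replicate 3, so its direction was not fixed. BCL2L11 overlaps the noncoding gene MIR4435-2HG on the opposite strand, which had 1845 to 2704 counts per library. BCL2L11 has 25 annotated transcripts, which encode BIM proteins of different potency that counts per gene do not separate.

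**Figure D2:**
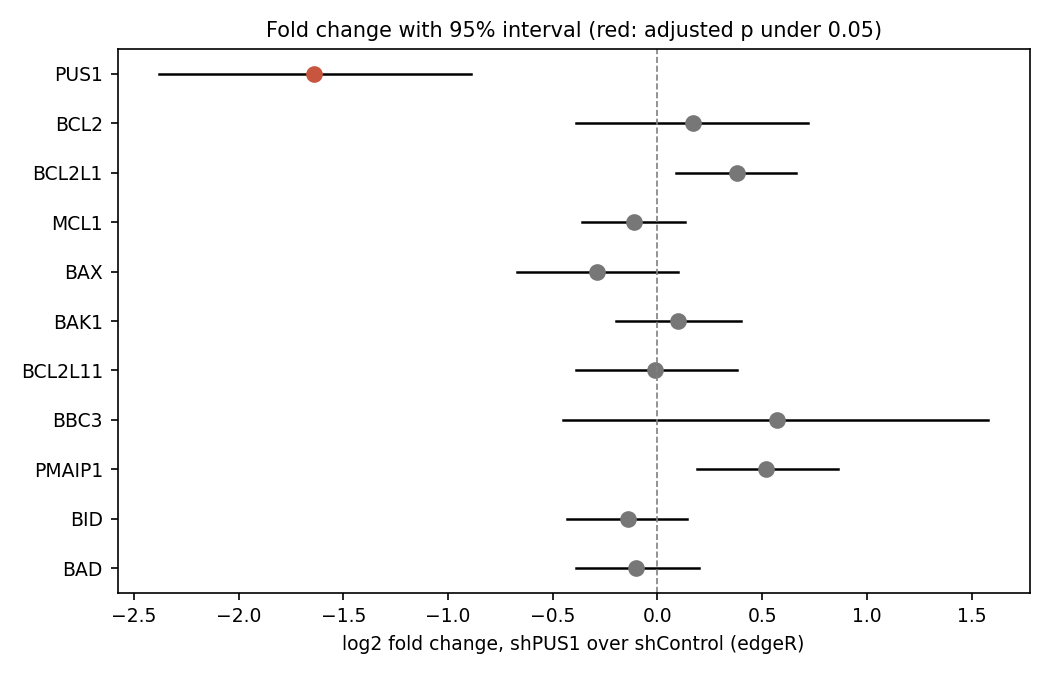
Log2 fold change of shPUS1 over shControl (horizontal axis) for PUS1 and the 10 genes, with bars for the 95% interval of each gene, not adjusted for the number of genes. PUS1, in red, passed the adjusted p of 0.05 and no family gene did, and the intervals of PMAIP1 (0.19 to 0.86) and BCL2L1 (0.09 to 0.66) lay above 0.

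The order of the family by FPKM was nearly the same in both groups. In shControl it ran BCL2L1, MCL1, BAD, BAK1, PMAIP1, BAX, BID, BCL2L11, BBC3 and BCL2. The libraries of BAK1 overlapped those of PMAIP1 there, as did those of PMAIP1 and BAX and those of BCL2L11 and BBC3, so these neighbours did not differ beyond their spread. In shPUS1, PMAIP1 stood next after MCL1 at 37.5 FPKM, with libraries that overlapped those of BAD at 36.8 FPKM, and BBC3 stood ahead of BCL2L11. All other neighbours in shPUS1 were apart.

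As a share of the summed FPKM of the 10 genes, the prosurvival genes made up most of the family mRNA. The sum was 300.1, 302.1 and 283.0 FPKM in shControl and 319.1, 321.5 and 318.9 FPKM in shPUS1, higher in every shPUS1 library. BCL2L1 took 29.7%, 33.7% and 30.9% of it in shControl and 37.2%, 37.5% and 36.7% in shPUS1. MCL1 took 22.9%, 22.0% and 22.8% in shControl and 19.0%, 19.5% and 18.5% in shPUS1. BCL2L1 therefore held a larger share and MCL1 a smaller one in each shPUS1 library than in any shControl library, while the prosurvival total was 54.2% ± 1.58 and 56.3% ± 0.9 (SD, n = 3 each), with overlapping groups. The effectors BAX and BAK1 together took 18.1%, 18.3% and 17.6% in shControl and 15.8%, 15.4% and 15.3% in shPUS1. The BH3-only genes took 27.8% ± 1.84 in shControl and 28.2% ± 1.04 in shPUS1 (SD, n = 3 each). Shares of a sum are tied to each other, so that a larger share of BCL2L1 lowers the others, and they were not tested.

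**Figure D3:**
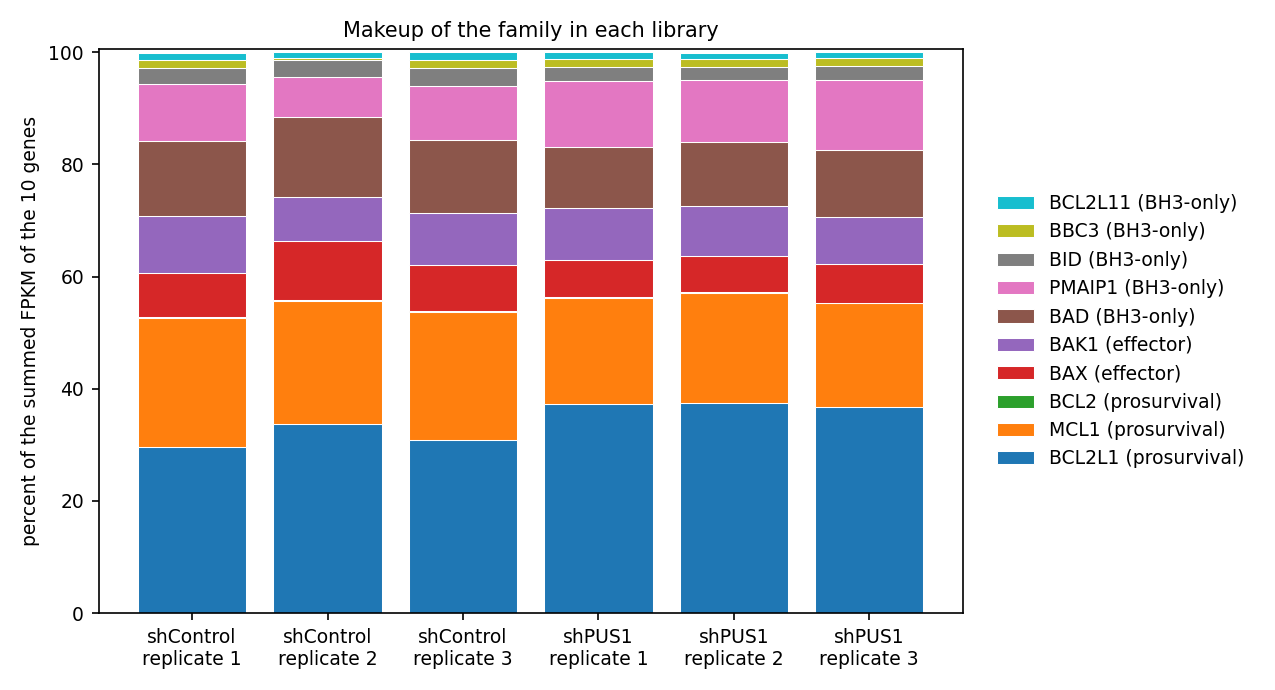
Stacked bars give the percent of the summed FPKM of the 10 genes (vertical axis, from 0 to 100) that each gene held in each of the 6 libraries, with the prosurvival genes at the bottom. The BCL2L1 segment is between 29.7% and 33.7% in shControl and between 36.7% and 37.5% in shPUS1, and BCL2 is too small to be seen.

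The control libraries differed among themselves more than the knockdown libraries did, and shControl replicate 2 stood apart. For 9 of the 10 genes the SD of FPKM was smaller in shPUS1 than in shControl. Replicate 2 was the highest control library for BCL2, BCL2L1, BAX, BID and BAD, the lowest for BAK1, BCL2L11, BBC3 and PMAIP1, and between the others for MCL1. Relative to the mean of the other controls its log2 ratio was -2.02 for BBC3, 0.43 for BAX and 0.97 for PUS1. Across all genes tested, Pearson's r of log2(CPM + 1) with the other shControl libraries was 0.9613 and 0.9614, where those correlated at 0.9878 with each other and shPUS1 libraries at 0.993 to 0.9954.

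Without shControl replicate 2, BCL2L1 and PMAIP1 were called higher in shPUS1 by edgeR, and 18.6% of all genes were called. The same fit called the fibroblast markers COL1A1 (log2 fold change 0.77, adjusted p = 0.0123) and PDGFRB (0.59, adjusted p = 0.0163) higher. Of the 5 markers of the line it called VIM alone, which was lower (-0.40, adjusted p = 0.0305). The part of these markers in the result was not tested. For BCL2L1 this fit gave 0.47 on the log2 scale (adjusted p = 0.00837) and for PMAIP1 0.41 (adjusted p = 0.0313). DESeq2 on all 6 libraries called PMAIP1 alone among the members (adjusted p = 0.0269), beside 12.4% of all genes, and gave BCL2L1 an adjusted p of 0.0808. DESeq2 without shControl replicate 2 called both, beside 21.6% of all genes. With any other library left out, edgeR called no member, where it called 11 and 474 of all genes without shControl replicate 1 or 3 and 11, 6 and 0 without shPUS1 replicate 1, 2 or 3. In these fits the adjusted p of BCL2L1 was between 0.151 and 0.366 and that of PMAIP1 between 0.098 and 0.304. The fold changes of both stayed positive in every fit tried.

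**Figure D4:**
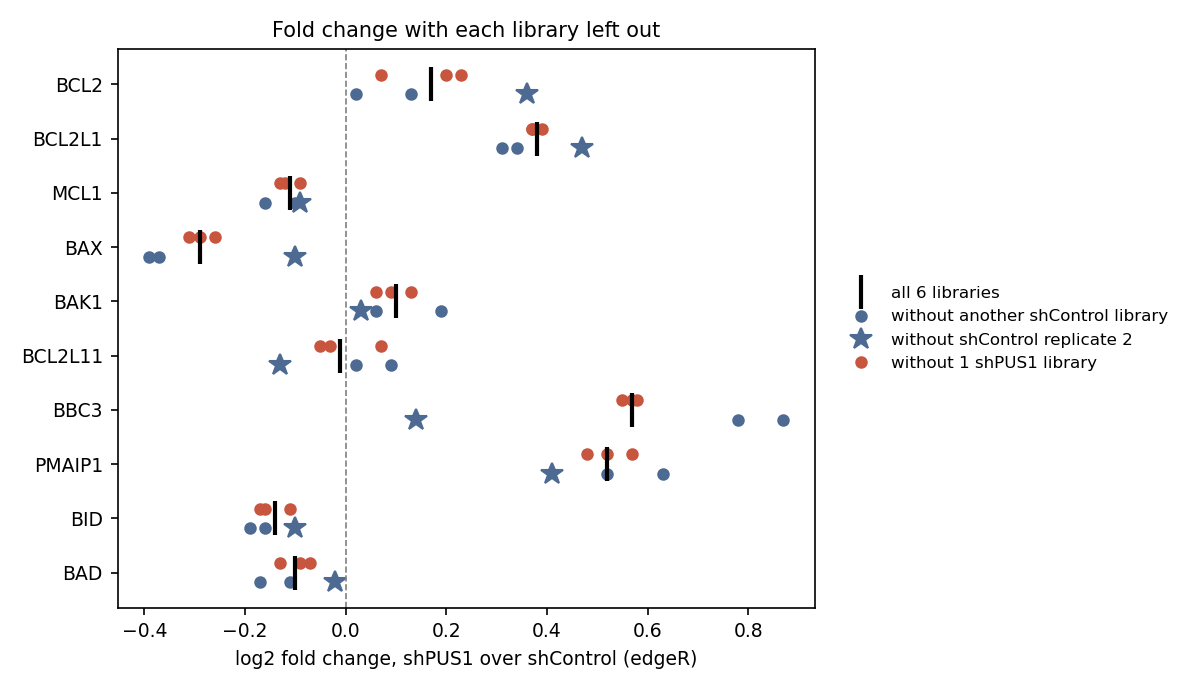
Log2 fold change of shPUS1 over shControl (horizontal axis) of the 10 genes with all libraries (black bars), without shControl replicate 2 (stars), without another shControl library (blue) and without a shPUS1 library (red). The star lies at 0.47 for BCL2L1 and at 0.14 for BBC3, where all libraries give 0.38 and 0.57.

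Further genes of the family and of the steps around it were read from lists. With all libraries, edgeR's adjusted p passed 0.05 for none of the genes tested in them. Of 14 other genes related to the family, 10 had enough counts, with a median log2 fold change of -0.07. At an unadjusted p under 0.05 there were 1 gene with a positive and 1 with a negative fold change, beside 25.5% of all genes, and DESeq2 called 0, beside 12.4%. The prosurvival gene BCL2L2 was at 11.1, 8.85 and 9.83 FPKM in shControl and at 9.50, 8.68 and 7.67 FPKM in shPUS1. The prosurvival gene BCL2A1, a target of NF-kappaB, had at most 14 counts in any library, with 0.94, 0.10 and 0.42 FPKM in shControl and 0.06, 0 and 0 in shPUS1, and was not tested. The effector relative BOK was between 8.59 and 14.1 FPKM. The BH3-only genes BIK and BMF were between 0.66 and 2.29 FPKM, and HRK had at most 12 counts.

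BCL2L13, a mitochondrial relative linked to mitophagy, had the smallest adjusted p of that list, 0.131 from edgeR, with a log2 fold change of 0.33. It was at 7.32, 6.64 and 7.21 FPKM in shControl and at 8.32, 9.50 and 8.43 FPKM in shPUS1. BNIP3, a hypoxia-induced mitophagy receptor and named here after its values were seen, was at 134, 50.9 and 108 FPKM in shControl and at 56.6, 54.4 and 59.6 FPKM in shPUS1. Its shControl replicate 2 was below all shPUS1 libraries while the other controls were far above them. The edgeR adjusted p of BNIP3 was 0.167 with all libraries, and without shControl replicate 2 its log2 fold change was -1.05 (adjusted p = 0.00131).

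Downstream of the pores, the genes of the apoptosome and of mitochondrial release had a median log2 fold change of -0.13 over 10 genes. Of these, 2 had an unadjusted p under 0.05, both with negative fold changes, beside 25.5% of all genes. VDAC1, the channel of the outer mitochondrial membrane, was at 127, 136 and 114 FPKM in shControl and at 89.8, 89.4 and 91.2 FPKM in shPUS1, without overlap. VDAC1 had a log2 fold change of -0.46 (standard error 0.12, edgeR adjusted p = 0.080), and DESeq2 gave an adjusted p of 0.0283. Without shControl replicate 2 edgeR called VDAC1 lower (log2 fold change -0.38, adjusted p = 0.024), beside 18.6% of all genes. Over 9 caspases and caspase-activated nuclease genes the median was -0.18, with 8 negative values, where 7770 of all 14748 genes were negative. CASP8, the initiator of death receptor signaling, had a log2 fold change of -0.41 (edgeR adjusted p = 0.124). Without shControl replicate 2 edgeR called CASP8 lower as well (-0.32, adjusted p = 0.0491). The inhibitors of apoptosis had a median of 0.17 over 6 genes, and BIRC5 (survivin), which also serves in mitosis, had -0.61 (edgeR adjusted p = 0.118). Without shControl replicate 2, its highest library at 49.7 FPKM, BIRC5 had -0.39 (adjusted p = 0.0697).

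The extrinsic pathway held the genes nearest to the threshold. In the list of death receptors, ligands and adaptors 11 of 12 genes were tested, with a median log2 fold change of -0.09. FAS, the receptor of FAS ligand, was at 1.15, 0.98 and 1.22 FPKM in shControl and at 0.56, 0.55 and 0.42 FPKM in shPUS1. All shPUS1 libraries were lower, with 40 to 107 counts per library, and edgeR gave a log2 fold change of -1.11 (standard error 0.23, edgeR adjusted p = 0.0519). DESeq2 called FAS, TNFRSF1A and TNFSF10 lower and CFLAR higher in shPUS1, 4 of the 11 genes, beside 12.4% of all genes. All of these but FAS, and TNFRSF10B, are named after their values were seen.

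TNFRSF1A, the main receptor of TNF, was at 27.5, 22.5 and 25.5 FPKM in shControl and at 17.7, 16.9 and 17.0 FPKM in shPUS1 (edgeR log2 fold change -0.52, adjusted p = 0.0572). CFLAR encodes FLIP, which blocks caspase-8. It was at 3.06, 2.74 and 3.39 FPKM in shControl and at 4.15, 4.82 and 4.27 FPKM in shPUS1 (edgeR log2 fold change 0.55, adjusted p = 0.0575). TNFSF10 encodes the death ligand TRAIL. It was at 14.7, 4.09 and 13.6 FPKM in shControl and at 3.84, 3.77 and 4.59 FPKM in shPUS1, so that shControl replicate 2 lay among the knockdown libraries (edgeR adjusted p = 0.1). Without shControl replicate 2 edgeR called FAS, TNFRSF1A, TNFRSF10B and TNFSF10 lower and CFLAR higher, beside 18.6% of all genes.

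**Figure D5:**
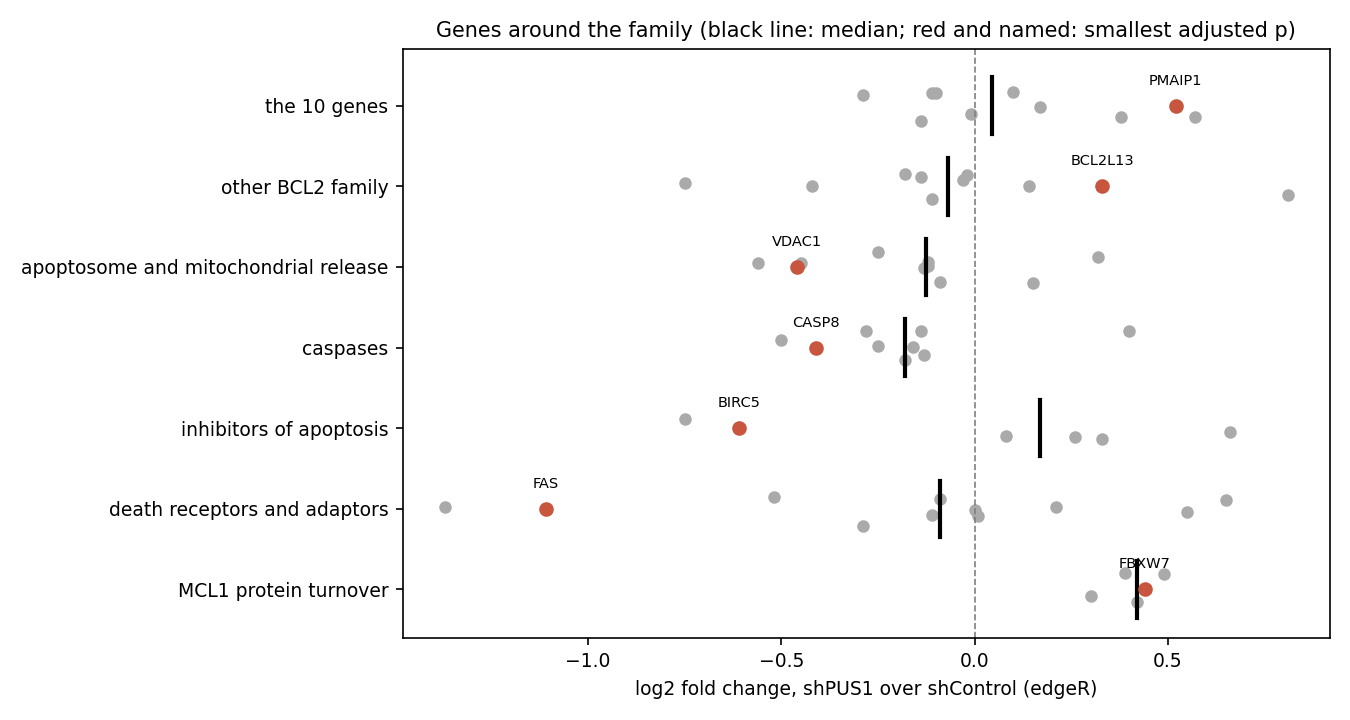
Log2 fold change of shPUS1 over shControl (horizontal axis) for the 10 genes and for the tested genes of 6 lists around the family (cell type markers are not drawn), 1 point a gene, with the median of the list as a black line and the gene of the smallest adjusted p in red. The medians drawn lie between -0.18 for the caspases and 0.42 for the genes of MCL1 protein turnover, and none of the points passed the adjusted p of 0.05.

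For 5 genes that act in the turnover of MCL1 protein the median log2 fold change was 0.42 and all values were positive, as were 6978 of all 14748 genes. The groups did not overlap for 2 of these 5 genes (36.1% of all genes), 3 had an unadjusted p under 0.05 (25.5% of all genes), and DESeq2 called 0 (12.4% of all genes). FBXW7, a ubiquitin ligase subunit that marks MCL1 for degradation, had the smallest adjusted p among them, with a log2 fold change of 0.44 (edgeR adjusted p = 0.111). Without shControl replicate 2 edgeR called FBXW7 higher, 1 of the 5 genes (log2 fold change 0.38, adjusted p = 0.0417), beside 18.6% of all genes. The list mixes genes that promote the degradation of MCL1 with USP9X, which opposes it by removing ubiquitin. USP9X, named here after its values were seen, had a log2 fold change of 0.42 (edgeR adjusted p = 0.185). The median of the list therefore gives no direction for MCL1 protein, which was not measured here.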

How the data were processed

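Total RNA of MDA-MB-231 cells was poly(A)-selected and sequenced in 3 shControl and 3 shPUS1 libraries. Per the labels, reads were aligned with HISAT2 and counted with HTSeq 0.6.1; build, annotation release and strand setting are not given in the sources used here. For each gene the authors deposited an estimated count, not normalized and not always whole, and an FPKM value that the authors made from that count, the exonic length and the library total. Library totals ran from 14241505 to 19625998 counts. For the tests, each count was rounded, filterByExpr removed low genes, TMM set the scaling, and edgeR 4.0.16 (R 4.3.3) was fitted across the 14748 genes left; p-values were adjusted by the Benjamini-Hochberg method over all of them. DESeq2 1.42.0 and limma 3.58.1, on log2(FPKM + 1) and log2(FPKM + 0.1), served as alternatives. Gene positions are those of the deposited table. They were read as GRCh38, since they equal GENCODE release 29 for every member but MCL1, BCL2L11 and PMAIP1, which the 2 annotations bound differently. Coding sequences came from GENCODE release 29 through Biopython 1.88. The named genes were the members, PUS1, the gene of smallest p in each list without a called gene, and 6 relatives given by level. Cell type markers were given to check the labels. BNIP3, TNFRSF1A, CFLAR, TNFSF10, TNFRSF10B and USP9X were named outside this rule after their values were seen. Members and lists were chosen with earlier results of these data known. Results on some listed genes are not reported here.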

Additional observations from a re-analysis of the deposited data

How the results depend on the processing

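The count of members called, 0 in edgeR, was also 0 with DESeq2 size factors (384 of 14748 genes called), library totals (296), no filter on low counts, a replicate block and limma on both scales (388 and 250 of 11519 genes). It was 0 to 2 when each library was left out in turn, with 2 only without shControl replicate 2. DESeq2 gave 1, DESeq2 without shControl replicate 2 (added after the data had been seen) gave 2, an adjusted p under 0.10 gave 1 (1561 of 14748 genes), and an unadjusted p under 0.05 (also added) gave 2 (3758 of 14748 genes). Libraries with the same replicate number share no stated batch and did not deviate together (r of -0.05, -0.03 and -0.19), and with a replicate block 18 genes of all tested were called in place of 380. That count was 1284 of 27010 genes without the filter on low counts and 1712 of 13792 genes by DESeq2. It was 11, 2813 and 474 without shControl replicate 1, 2 or 3 and 11, 6 and 0 without shPUS1 replicate 1, 2 or 3. These leave-out fits tested between 15082 and 15226 genes. The log2 fold change of PUS1 was -1.55 with a replicate block (adjusted p = 0.0969), -1.0 and -1.48 by limma on log2(FPKM + 1) and log2(FPKM + 0.1), which no longer passed (adjusted p = 0.0544 and 0.0514), and -1.86 to -1.20 with each library left out. That of BCL2L11 was 0.0026 with the replicate block, -0.13 to 0.09 with each library left out, and changed sign in 4 of 14 alternatives; the cause was not tested. The other 9 members kept their sign in every fit that gave a value, and BCL2, with a mean under 1 FPKM, had none from limma. The standard error of BBC3 was 0.44 with all libraries and 0.12 without shControl replicate 2, where its log2 fold change was 0.14.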
